A study of Bos taurus with 44 samples.

Results

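Gene expression in blood mononuclear cells was compared between Holstein cows classed as high and cows classed as low for antibody response (Ab). The comparison used 6 of the 11 cows and 24 of the 44 arrays of the series, chosen by sample title. The 3 high cows were high cow 1, which the titles also class as high for the cell-mediated response (delayed-type hypersensitivity, DTH), and high cows 2 and 3, classed as high for antibody alone. The 3 low cows, low cows 1 to 3, were classed as low for antibody. The titles give no cell-mediated class for high cows 2 and 3 or the low cows. All were female, all were immunized with antigens meant to raise both arms of the response (the antigens are not named), and blood was taken on day 6. No ages are given, and no unimmunized cow was compared, so the values describe immunized animals only. Mononuclear cells were taken from a Percoll density gradient without further culture, their RNA was amplified once, and each array held the RNA of 1 cow beside a common standard, also RNA of blood mononuclear cells, in Alexa647 and Alexa555 dyes. Each cow had 4 technical arrays, 2 in each dye orientation, which were reduced to 1 value per cow.

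Antibody is made by B cells and plasma cells, which need help from CD4+ T cells that recognise peptides of the antigen on MHC class II molecules. The T cell receptor signals through the CD3 chains and CD247. Monocytes and other myeloid cells present antigen and release inflammatory cytokines such as interleukin 1 beta, and their chemokines draw further cells.

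The array was a spotted cDNA array of immune and endocrine genes. It carried 1680 spots, of which 1224 had 1 gene symbol in the platform annotation, 16 had several and 440 had none. Named spots covered 141 genes of cattle, 131 of them with 8 spots and 10 with 16, and 137 matched the bovine RefSeq table by gene identifier. Values are log2 ratios, on which a step of 1 stands for a 2-fold ratio. A ratio to a standard of the same kind of cells gives no absolute level, so the presence of a cell type could not be checked from its markers, and levels were not compared between genes. The direction of the ratio is not stated and is read as cow over standard, the usual convention. In a bulk sample, more cells of a type and more RNA per cell cannot be told apart.

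Arrays 1 and 2 of low cow 1 stood apart. Their mean correlation over spots with the arrays of other cows was −0.20 and −0.23, against 0.11 to 0.24 for the other 22 arrays. Within low cow 1, array 2 correlated with array 3 at −0.73 and array 1 with array 4 at −0.67, but arrays 1 and 2 correlated at 0.35. Averaging therefore cancelled most of this cow's values. The SD of its log2 ratios over the 141 genes was 0.0546, against 0.257 to 0.381 for the other 5 cows, and 0 of its genes lay beyond ±0.5, against 7 to 18. With the sign of these 2 arrays turned, its SD was 0.239 and 7 genes lay beyond ±0.5. Which sign is right is not settled by the sources used here, so each value below is given as deposited and, where marked "turned", with the sign of both arrays reversed.

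**Figure D1:**
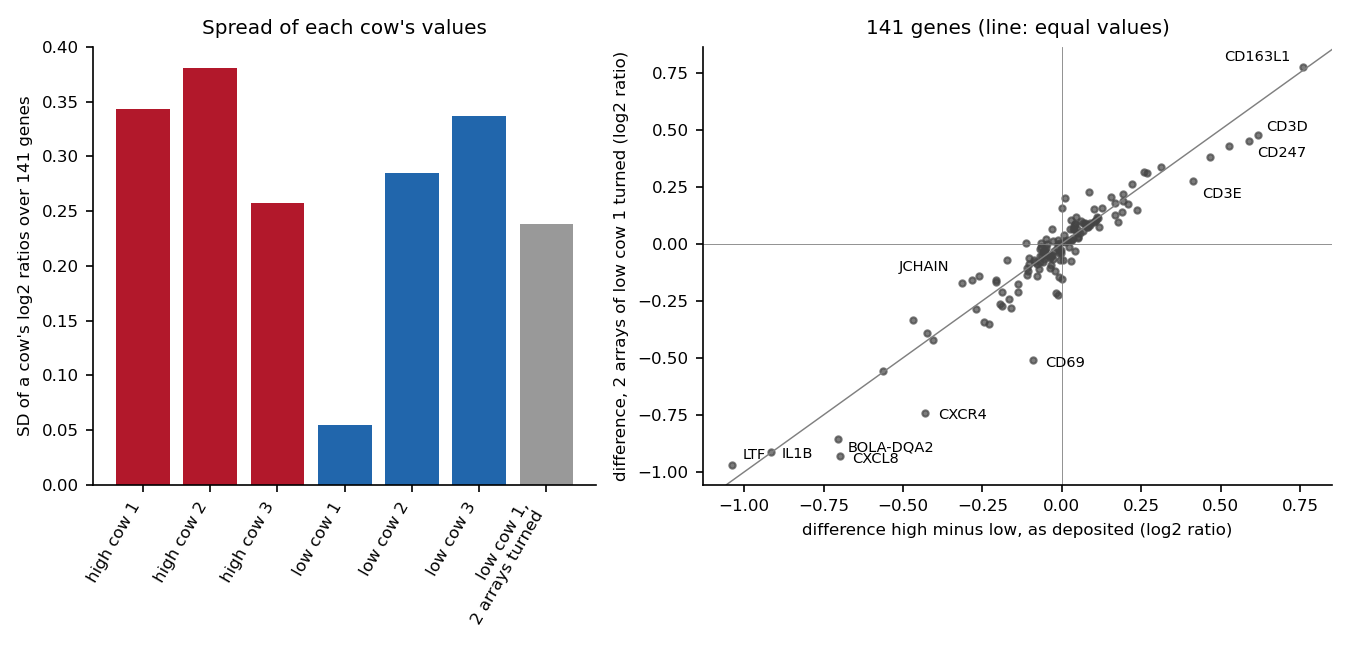
Left, the SD of each cow's log2 ratios over 141 genes (bars, 1 per cow, red for high cows and blue for low cows), with the grey bar for low cow 1 after 2 of its arrays were turned. Right, the high-minus-low difference of each gene as deposited (x axis) and with these arrays turned (y axis), in log2 ratio; low cow 1 has the shortest bar as deposited (0.0546), and CD69 and CXCR4 lie well below the line of equal values.

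No gene passed the test after adjustment. The features were the 141 genes and the single spots without 1 symbol. At a Benjamini-Hochberg adjusted p under 0.05, limma called 0 of 562 (0%) as deposited, where the smallest adjusted p was 0.217, and 0 of 562 (0%) with the arrays turned, where it was 0.428. Before adjustment 37 features (6.58%) as deposited and 54 (9.61%) turned had a p under 0.05. Among the named genes 10 of 141 (7.09%) were under that level. CD247, CD3G, CD3D, IL18 and SOD1 had higher ratios in high cows (5 of 141, 3.55%), and IL1B, BOLA-DQA2, FCER1G, IL1RN and JCHAIN had lower ratios (5 of 141, 3.55%). The high and low cows did not overlap for 15 of 141 named genes (10.6%), 7 with higher ratios (4.96%) and 8 with lower ratios (5.67%). That share is close to the 65 of 562 features (11.6%) over the whole array, 37 of them higher (6.58%) and 28 lower (4.98%). The single spots among these features were printed in sets of 8, so 1 set can count several times. With such spots grouped into sets, 5 of 54 unnamed sets had no overlap. Turned, 21 of 141 genes (14.9%) had no overlap, and 14 (9.93%) had none either way. Of the 141 differences 64 (45.4%) were above 0 as deposited and 68 turned, with a median of −0.01. The deposited arrays were centred, so these values cannot show whether there was a general shift. Two-sided exact permutation of 3 against 3 cows cannot give a p below 0.1 for a single gene. The labels give no animal identities beyond the cow numbers, and p-values measure the spread between these 6 cows.

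T cell receptor chains had higher ratios in high cows for 4 of 4 measured members of the list, with a median difference of 0.56 (0.44 turned), against −0.01 over all 141 genes. Of the 4, 0 passed adjustment, and 3 of the 4 had no overlap between the groups, both as deposited and turned, where the share was 11.6% of all features as deposited and 14.9% of named genes turned. CD247, the zeta chain that carries most of the receptor's signalling motifs, was at 0.73, 0.75 and 0.47 in high cows 1 to 3 and at −0.03, 0.16 and 0.05 in low cows 1 to 3. Its lowest high cow lay above its highest low cow. All 12 high arrays were above 0, from 0.29 to 1.00, while the low arrays ran from −0.45 to 0.41. The difference was 0.59 ± 0.11 (SE), with a 95% interval of 0.31 to 0.87 and an adjusted p of 0.217. Turning arrays 1 and 2, which stood at −0.38 and −0.45 for this gene beside 0.41 and 0.31 on arrays 3 and 4, placed low cow 1 at 0.39 and left a difference of 0.45 ± 0.13.

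CD3G, the gamma chain, was at 0.96, 0.48 and 0.43 in high cows and at −0.11, 0.18 and 0.22 in low cows, a difference of 0.53 ± 0.18 (0.43 ± 0.15 turned, adjusted p = 0.571 as deposited). CD3D, the delta chain, was at 1.22, 0.59 and 0.56 in high cows and at −0.08, 0.30 and 0.29 in low cows, a difference of 0.62 ± 0.21 (0.48 ± 0.19 turned). CD3E, the epsilon chain, was at 1.08, 0.60 and 0.39 in high cows and at −0.01, 0.41 and 0.43 in low cows, so that high cow 3 lay within the low range. Its difference was 0.41 ± 0.21 (0.27 ± 0.18 turned). High cow 1 had the highest ratio of the 6 cows for all 3 CD3 chains but not for CD247. Without it the differences were 0.40 for CD3D, 0.36 for CD3G and 0.22 for CD3E, against 0.55 for CD247, which ranged from 0.54 to 0.68 over the 6 fits without 1 cow.

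**Figure D2:**
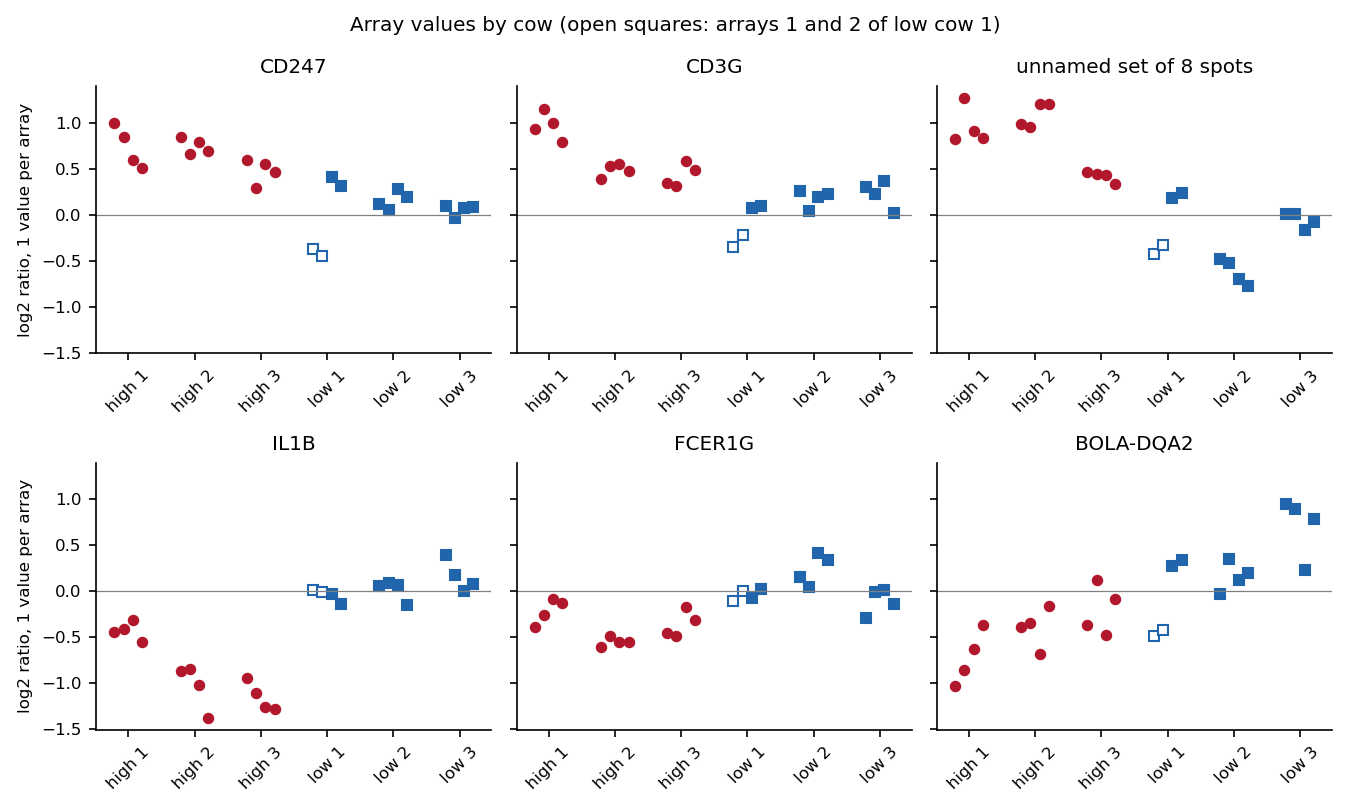
Log2 ratio on each of the 4 arrays of each cow (points, arrays 1 to 4 from left to right) for 5 genes and 1 unnamed set of 8 spots; red circles are high cows and blue squares low cows, with arrays 1 and 2 of low cow 1 as open squares. For IL1B all 12 high arrays lie below all 12 low arrays, whereas for CD247 and BOLA-DQA2 the open squares lie on the far side of 0 from the other 2 arrays of their cow.

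The other T cell genes did not stand beside the receptor chains. Of 9 measured coreceptor and costimulation genes 4 had a higher and 5 a lower ratio in high cows, with a median difference of −0.0016. CD4, the coreceptor of helper T cells, was the 1 member without overlap as deposited, at 0.23, 0.21 and 0.23 in high cows and at −0.09, 0.00 and 0.19 in low cows. That difference was 0.19 ± 0.10 (0.14 ± 0.08 turned). CD5 differed by 0.19 ± 0.17, CD28 by −0.04 ± 0.10 and CD40LG, the ligand by which helper T cells activate B cells, by −0.0016 ± 0.08. Turned, CD28 (−0.10 ± 0.09) and CD40LG (−0.03 ± 0.07) were also without overlap, with lower ratios in high cows, which made 3 of 9 members. The share without overlap was 11.6% of all features as deposited and 14.9% of named genes turned. CD69, an early activation marker, had the widest spread of the list, at 1.06, 1.52 and 0.44 in high cows and at −0.04, 1.42 and 1.90 in low cows. With the arrays turned low cow 1 stood at 1.23 for CD69 and the difference went from −0.09 ± 0.53 to −0.51 ± 0.31. The interval as deposited, −1.37 to 1.18, spans differences of either sign, and without low cow 3 the difference was 0.31.

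CD163L1, also called WC1, is a scavenger receptor family member found on a large subset of bovine gamma delta T cells. It was at 0.98, 0.46 and −0.34 in high cows and at −0.04, −0.43 and −0.71 in low cows. The 2 groups overlapped, since high cow 3 lay below low cow 1. The difference of 0.76 ± 0.35 (0.77 ± 0.35 turned, adjusted p = 0.858 as deposited) was the highest of the named genes, and was 0.46 without high cow 1. WC1 belongs to a family of close relatives, and a cDNA spot may bind several of them.

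The interleukin 1 family list held the caspases CASP1 and CASP4 as well as cytokine genes and the antagonist IL1RN. Ratios were lower in high cows for 5 of 6 measured members of the list, with a median difference of −0.30 (−0.20 turned). None passed adjustment. IL1B, the inflammatory cytokine interleukin 1 beta, was at −0.43, −1.03 and −1.15 in high cows and at −0.04, 0.02 and 0.16 in low cows. Here all 12 arrays of high cows, from −1.37 to −0.31 with a median of −0.91, lay below all 12 arrays of low cows, from −0.15 to 0.39 with a median of 0.04. This held for 1 of 141 named genes, IL1B itself, as deposited and also turned. The difference was −0.91 ± 0.20, with a 95% interval of −1.39 to −0.44 and an adjusted p of 0.217. It did not rest on the arrays that stood apart, since their IL1B values were near 0 (0.02 and −0.01) and the turned difference was also −0.91 ± 0.20. High cow 1 lay closest to the low cows. Without it IL1B was called, at −1.13 ± 0.11 with a limma adjusted p of 0.0432, as the 1 called feature. Leaving out the high cow nearest the low cows enlarges the difference by construction. No other fit without 1 cow called IL1B.

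IL1A, which encodes interleukin 1 alpha, was at −0.10, −0.80 and −0.81 in high cows and at −0.04, −0.30 and −0.09 in low cows. High cow 1 lay in the low range, so the groups overlapped, and the difference was −0.43 ± 0.21 (−0.39 ± 0.21 turned; −0.66 without high cow 1). IL1RN encodes the antagonist that blocks the interleukin 1 receptor. It was at −0.83, −0.30 and −0.12 in high cows and at 0.05, 0.05 and 0.05 in low cows, a difference of −0.47 ± 0.19. Low cow 1 moved to −0.35 when its arrays were turned, the groups then overlapped, and the difference was −0.33 ± 0.21. Without high cow 1 it was −0.26 as deposited. The order of the high cows was thus not the same for both genes, with high cow 1 least low for IL1B and most low for IL1RN.

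IL18, a cytokine of the same family that promotes interferon gamma release, was the 1 member with a higher ratio. It was at 0.47, 0.32 and 0.17 in high cows and at −0.11, 0.13 and −0.0017 in low cows without overlap, a difference of 0.31 ± 0.12 (0.34 ± 0.12 turned). CASP1, the protease that matures interleukin 1 beta and interleukin 18, differed by −0.07 ± 0.31 and CASP4 by −0.17 ± 0.22. CASP1 ranged from −0.99 in high cow 1 to 0.07 in high cow 3. Without high cow 1 the difference was 0.20 for CASP1 and −0.01 for CASP4.

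Monocyte markers were read beside the interleukin 1 genes, since monocytes are a main source of these cytokines. All 4 measured markers of 11 on the list had differences below 0, from −0.19 ± 0.16 for SIRPA to −0.0048 ± 0.11 for FCGR1A, with TLR4 at −0.08 ± 0.10 and CD14 at −0.05 ± 0.10. Their median per cow lay between −0.15 and −0.13 in high cows and between −0.16 and 0.00 in low cows, so the groups overlapped. The part of monocyte number in the IL1B difference was not tested. FCER1G, the signalling gamma chain shared by several Fc receptors, was at −0.22, −0.55 and −0.36 in high cows and at −0.04, 0.24 and −0.11 in low cows. No high cow overlapped a low cow for FCER1G, and the difference was −0.40 ± 0.14 (−0.42 ± 0.13 turned). TLR2, a receptor for bacterial lipoproteins, was at −0.61, −0.69 and −0.47 in high cows and at −0.04, −0.55 and −0.56 in low cows. Its difference of −0.21 ± 0.16 came mostly from low cow 1, and was −0.04 without that cow and −0.16 ± 0.13 turned.

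**Figure D3:**
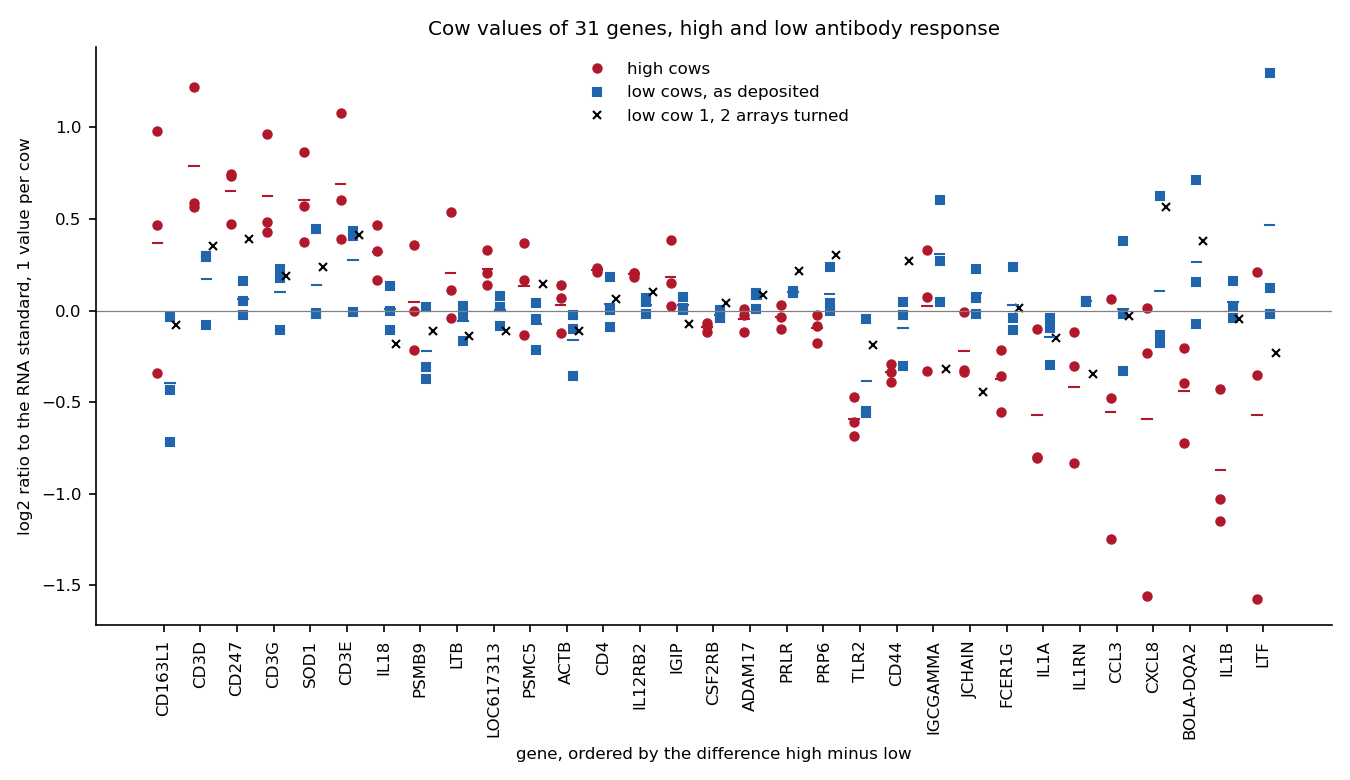
Log2 ratio of each cow for the 31 named genes described by the rule on p and overlap, ordered by difference; red circles are high cows, blue squares low cows as deposited, short lines the group means, and crosses low cow 1 with 2 arrays turned. CD247 and CD3D are separated upwards and IL1B downwards, while LTF and CXCL8 have wide spreads set by single cows.

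MHC class II genes had no shared direction, with 1 of 3 measured members higher and 2 lower and a median difference of −0.21 (−0.17 turned). BOLA-DQA2, an alpha chain of the cattle class II molecule, was at −0.73, −0.40 and −0.20 in high cows and at −0.07, 0.16 and 0.71 in low cows without overlap. The difference was −0.71 ± 0.23, with a 95% interval of −1.27 to −0.14, and −0.86 ± 0.19 turned. Low cow 3 was the highest cow and high cow 1 the lowest, and the difference without low cow 3 was −0.48. BOLA-DMA, which helps load peptides, differed by −0.21 ± 0.19 and BOLA-DRB3, a beta chain, by 0.11 ± 0.29 (−0.18 without high cow 3). Class II genes have close paralogues whose transcripts a cDNA spot may also bind, so these values are uncertain. MHC class I processing genes had higher ratios for 6 of 7 measured members, with a median difference of 0.09 (0.12 turned), and none passed adjustment. PSMB9, a subunit of the immunoproteasome, was at −0.22, −0.0033 and 0.36 in high cows and at 0.02, −0.31 and −0.37 in low cows, a difference of 0.27 ± 0.18 (0.31 ± 0.16 turned; 0.11 without high cow 3). Of this list PSMB8 (0.10 ± 0.11) and TAP2 (0.09 ± 0.17) were without overlap when turned (0.15 ± 0.10 and 0.23 ± 0.11), though not as deposited. The share without overlap was 14.9% of named genes turned. PSMC5, an ATPase of the proteasome cap, differed by 0.21 ± 0.15 (0.17 ± 0.16 turned; 0.09 without high cow 2) and CALR, a chaperone, by −0.03 ± 0.11.

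B cell and immunoglobulin genes showed no shared direction on day 6. Of 4 measured members of the list, 1 had a higher and 3 a lower ratio. Turning the arrays made it 3 higher and 1 lower. IGCGAMMA (lower both ways) and IGIP (higher both ways), described below, were not on the list and are outside these counts. JCHAIN, which joins the units of polymeric IgM and IgA, was at −0.33, −0.33 and −0.01 in high cows and at −0.02, 0.23 and 0.07 in low cows. High cow 3 lay just above low cow 1, and the difference was −0.32 ± 0.13. Turned, low cow 1 was the lowest of the 6 cows at −0.44, and the difference was −0.17 ± 0.20. IGHM, the heavy chain of IgM, ranged from −0.88 to 0.07 in high cows and from −1.30 to 0.02 in low cows, a difference of 0.0014 ± 0.41 with an interval of −0.98 to 0.98. IGCGAMMA, an IgG constant region, was at 0.33, −0.33 and 0.07 in high cows and at 0.05, 0.60 and 0.27 in low cows, a difference of −0.28 ± 0.21 (−0.16 ± 0.28 turned). It was −0.10 without high cow 2 and −0.13 without low cow 2. Spots of immunoglobulin constant regions can bind transcripts of related classes. IGIP, which promotes IgA production, differed by 0.16 ± 0.12 (0.20 ± 0.11 turned) and overlapped as deposited, but not when turned, without high cow 1 (0.24) or without low cow 1 (0.18). Without high cow 3 it differed by 0.06. CD40 and CD72, both B cell receptors for T cell signals, differed by −0.03 ± 0.13 and −0.05 ± 0.16.

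Chemokine ligands on the list had lower ratios in high cows for 7 of 7 measured members. Their median difference was −0.11 (−0.23 turned, when 6 of 7 were lower). SDF1, a chemokine ligand measured but not on the list, had a higher ratio as deposited (0.04) and changed sign when turned. None passed adjustment and none was without overlap as deposited. CXCL8, which attracts neutrophils, was at −0.23, −1.56 and 0.01 in high cows and at −0.13, 0.63 and −0.18 in low cows, a difference of −0.70 ± 0.44 (−0.93 ± 0.45 turned). CCL3, an attractant of monocytes and T cells, was at 0.07, −1.25 and −0.48 in high cows and at −0.02, 0.38 and −0.33 in low cows, a difference of −0.56 ± 0.35. High cow 2 was the lowest cow for both, and without it both differences were −0.22. The CXCL8 difference was also −0.44 without low cow 2. Turned, XCL1 (−0.28 ± 0.08) was without overlap, as were 14.9% of named genes. CCL2, with 2 printed clones that disagreed (−0.12 and 0.12), had the smallest difference of the ligands. Chemokine receptors had a higher ratio for 1 of 7 and a lower for 6 of 7, with a median of −0.02. CXCR4, a homing receptor of many leukocytes, was at 0.50, −0.44 and −0.21 in high cows and at 0.0033, 0.06 and 1.08 in low cows, and its difference was −0.43 ± 0.36 (−0.74 ± 0.35 turned). Without low cow 3 the CXCR4 difference was −0.08, and without high cow 2 it was −0.23. CCR3 was the receptor with a higher mean (0.24 ± 0.27), with high cow 1 at 0.97, and without that cow the CCR3 difference was −0.09.

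Helper T cell cytokine lists had medians near 0. In the interleukin 12 and interferon gamma axis 5 of 6 members had a higher ratio, with a median of 0.08. IL12RB2, the inducible chain of the interleukin 12 receptor, was at 0.20, 0.18 and 0.21 in high cows and at −0.02, 0.05 and 0.07 in low cows without overlap. Its difference was small but its spread narrow (0.17 ± 0.08; 0.13 ± 0.07 turned), and 12 of 12 high arrays were above 0, from 0.09 to 0.32. The low arrays of IL12RB2 ran from −0.28 to 0.24, so single arrays of the groups overlapped. IFNG differed by 0.11 ± 0.12 and IL12A by −0.03 ± 0.10. In the type 2 cytokine axis 1 of 6 had a higher ratio, with a median of −0.05, from −0.08 ± 0.11 for IL4R to 0.03 ± 0.15 for IL3. The interval of IL4, a cytokine that helps B cells switch class, was −0.32 to 0.22, and that of IFNG −0.19 to 0.40.

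**Figure D4:**
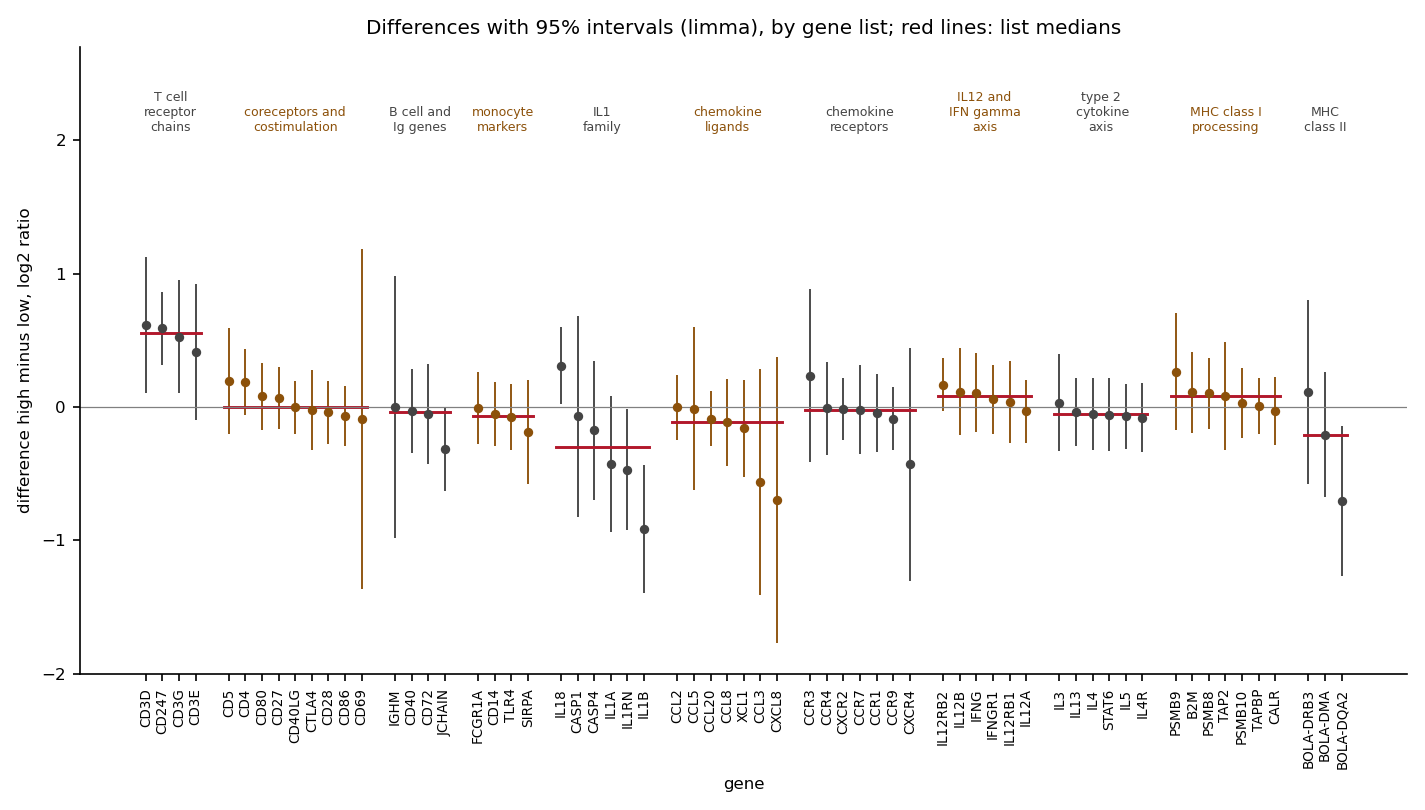
High-minus-low difference of each measured gene in 11 lists, in log2 ratio as deposited (points, with 95% intervals from limma as vertical lines) and the median of each list (red line). The T cell receptor chains have a median of 0.56 and the interleukin 1 family list (with CASP1 and CASP4) of −0.30. The medians of the coreceptors, the helper cytokine axes and the chemokine receptors lie close to 0. Single genes of these lists lie further off, such as CXCR4 (−0.43) and CCR3 (0.24).

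Among the remaining genes, SOD1, the cytosolic superoxide dismutase, was at 0.57, 0.87 and 0.37 in high cows and at −0.01, −0.02 and 0.45 in low cows. All 12 high arrays and 6 of 12 low arrays were above 0. High cow 3 lay below low cow 3, and the difference was 0.47 ± 0.18 (0.38 ± 0.17 turned). LOC617313, a gene without a name in the RefSeq table, was at 0.14, 0.21 and 0.33 in high cows and at 0.02, −0.09 and 0.08 in low cows without overlap, a difference of 0.22 ± 0.10 (0.26 ± 0.10 turned). CD44, an adhesion receptor for hyaluronan, was narrow in high cows at −0.29, −0.39 and −0.33, whereas low cows were at −0.03, 0.05 and −0.30. Its difference was −0.24 ± 0.12 (−0.34 ± 0.15 turned). Lymphotoxin beta, encoded by LTB, differed by 0.26 ± 0.17 and was 0.09 without high cow 2.

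Of 9 endocrine and growth factor genes 4 had a higher and 5 a lower ratio, with a median of −0.01. The prolactin receptor PRLR was without overlap, at −0.04, −0.10 and 0.03 in high cows and at 0.10, 0.10 and 0.11 in low cows, a difference of −0.14 ± 0.08 (−0.18 ± 0.08 turned). PRP6, a prolactin-related protein gene, was also without overlap, at −0.09, −0.18 and −0.02 in high cows and at 0.04, −0.0034 and 0.24 in low cows. Its difference of −0.19 ± 0.10 was −0.42 over arrays 3 and 4 and 0.05 over arrays 1 and 2, and −0.11 without low cow 3. ADAM17, the protease that sheds tumour necrosis factor, and CSF2RB, the shared beta chain of the GM-CSF receptor family, completed the genes without overlap, with differences of −0.11 ± 0.09 and −0.07 ± 0.08. These 4 differences were smaller than 0.27, the median distance from a difference to either bound of its 95% interval.

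LTF, which encodes the neutrophil granule protein lactoferrin, had the lowest difference of the named genes, at −1.04 ± 0.54 (−0.97 ± 0.57 turned), and the fewest values. High cows were at 0.21, −1.57 and −0.35 and low cows at −0.02, 0.12 and 1.30, so the groups overlapped. Only 95 of 192 spot values of LTF (49.5%) were present in the table. A single array of high cow 2 read −4.65, and without it that cow was at −0.34 and the difference at −0.63, which is nearer 0 than that of IL1B. The LTF difference was −0.54 without high cow 2 and −0.62 without low cow 3. CXCR2, the other measured neutrophil marker, differed by −0.02 ± 0.10. The housekeeping genes lay at 0.19 ± 0.13 for ACTB (0.09 without low cow 2), 0.10 ± 0.09 for GAPDH, 0.04 ± 0.11 for HPRT1 and −0.00031 ± 0.20 for RPL19. Spots of the bacterial control gene vapA were at 0.01 ± 0.10 in high and 0.03 ± 0.03 in low cows (mean ± SD, n = 3 each).

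The layout of the array allowed spots without a single symbol to be grouped after their values had been seen. All 144 symbol entries, those with several symbols included, were printed as whole sets of 8 spots. Each set was an adjacent pair at the same place in each of 4 subgrids of 420 spots. Spots without a single symbol fell into 57 such sets, here called unnamed. These 57 include the sets with several symbols, which are also among the 144 entries. With sets in place of spots, 0 of 195 features passed in limma, where adjusted p-values began at 0.196 (0.354 turned). An unnamed set whose first spot is number 243 held the second smallest p. It was at 0.96, 1.09 and 0.42 in high cows and at −0.09, −0.62 and −0.06 in low cows without overlap, a difference of 1.08 ± 0.23. Its 8 spots ran from 1.04 to 1.12. All of its 12 high arrays, from 0.33 to 1.27, were above all 12 low arrays, from −0.78 to 0.23, as for 1 of 57 unnamed sets. Turned, low cow 1 was at 0.29, the difference was 0.95 ± 0.28 and 0 of 57 sets were separated by array, though the cows still did not overlap. The difference of this set was larger than that of any named gene with a higher ratio. A second unnamed set, whose first spot is number 297, was at −0.33, −0.80 and −0.83 in high cows and at −0.02, −0.18 and −0.28 in low cows, a difference of −0.49 ± 0.16 (−0.58 ± 0.19 turned). Which transcripts these sets measure was not determined here.

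Precision was set by the number of cows and arrays. As deposited, the median SD over genes was 0.145 for spots within an array, 0.221 for the arrays within a cow, 0.125 for high cows and 0.106 for low cows. Intervals lay wholly within ±0.5 for 97 of 141 genes, and for 11 genes they reached beyond ±1. Both dye orientations gave the same sign for 31 of 31 genes described by the rule on p and overlap, and arrays 1 and 2 gave the same sign as arrays 3 and 4 for 29 of 30, against 86 of 140 among all genes with both. These 31 genes were chosen on the mean of the same arrays, so this agreement is a description.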

How the data were processed

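The authors deposited 1 log ratio per spot and array, of a cow against a common RNA standard. These log2 values were used as deposited. The log base is not stated and was read as log2, and array medians near 0 show that values had been centred. Which scanner, background correction and normalization were used is not given in the sources used here, and no spot intensities were analysed, so signal over background is unknown. Dye-swapped arrays of a cow correlated above 0 in each of these cows except low cow 1, where they averaged below 0 (from −0.73 to 0.35). No sign was applied for dye, and low cow 1 is given as deposited and turned.

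Spots of 1 symbol were averaged, then arrays within each dye orientation, then both orientations, to 1 value per cow. Features lacking a value in either orientation of any cow were left out. High and low cows were compared in R 4.3.3 with lmFit and eBayes of limma 3.58.1 (two-sided, Benjamini-Hochberg over 562 features, threshold 0.05), a step tested on simulated data. The number of arrays limits the precision. Spots with several symbols and the control gene vapA were not named. Genes were described if among the 30 of smallest p or without overlap between the groups, which gave 31, or as members of 27 gene lists with a measured gene (of 29; platelet and red cell lists had none). Members and lists were chosen with earlier results of these data known. No sequences are printed. Alternatives changed array signs, normalization, dye, array pairs, spot averaging, filters, cows left out and blocks.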

Additional observations from a re-analysis of the deposited data

How the results depend on the processing

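Of 23 alternatives, 3 were chosen after seeing the data (sets grouped by layout, and turned arrays or grouped sets together with leaving out high cow 1). limma called 0 features in all but 4 of them. With each cow left out in turn it called 0 to 1, where the 1 was IL1B without high cow 1 (high_Ab replicate 1). IL1B was also the 1 call without this cow with the arrays turned (−1.13, adjusted p = 0.0365) and with sets grouped (−1.13, adjusted p = 0.0109). Arrays as samples with cow as a random block gave 16 calls: IL1B (7.21e-05), CD247 (0.0107), CD3G (0.0135), FCER1G (0.0284), BOLA-DQA2 (0.0441) and 11 unnamed spots, with a fitted correlation within a cow of 0.273. The 11 unnamed spots all belonged to the unnamed sets that begin at spots 243 and 297, so they are repeats within these sets. The random block fit draws its p-values from 24 arrays of 6 cows, so they can be too small for a comparison between cows. It uses 1 correlation for all features and cows, while pairs of arrays of low cow 1 correlated from −0.73 to 0.35.

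Of 140 or 141 named genes, 24 to 35 were without overlap with each cow left out (fewer cows overlap less often by construction). The count was 44 with high cow 1 left out and the arrays turned. It was 35 with that cow left out and sets grouped, and 13 to 21 under the other alternatives counted. Shares over all features were not counted under these alternatives, so these counts have no background beside them. The difference of PRP6 reversed to 0.049 over arrays 1 and 2 alone; the cause was not tested. The other 30 of 31 genes kept their sign, as did 62 of all 141 genes. These 31 genes were chosen by p or overlap on the same arrays, so their kept signs follow in part from that choice. For a gene without overlap, leaving out 1 cow cannot reverse the sign. The median of all genes moved by less than 0.1 under each alternative.

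With the cow number as a replicate block limma called 0 features, with a smallest adjusted p of 0.399. Deviations of cows with the same number correlated at −0.01, −0.27 and −0.08, and those of cows with unlike numbers at −0.15 to 0.25. With so few cows, these values cannot decide whether the numbers pair the cows.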
